A study of Sus scrofa with 6 samples.

Results

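Calpains are cysteine proteases of the cytosol that calcium switches on. Transcripts of their genes were followed here in longissimus dorsi, the back muscle that gives the loin. The set was drawn up by gene name, as genes tied to meat tenderness, with no measured value in its rule, though earlier results of these data were known when it was proposed. It listed 8 genes: CAPN1, CAPN2, CAPN3, CAPN5, CAPN6, CAPN7, CAPNS1 and CAST. Of these, 7 had a row among the 17627 genes of the deposited table. The symbol table gave no identifier for CAST, which encodes the inhibitor calpastatin, so CAST was not analysed here. The libraries came from 2 breeds, both labelled as 5 months old. Wannanhua, a local Chinese breed, and Yorkshire, a lean commercial breed, had 3 libraries each. The design text of the series speaks of piglets instead, and no treatment, sex or genotype is given in the sources used here. No label says that the libraries of a breed came from separate animals, so the spread that p-values measure may be partly technical.

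The classical calpains, mu-calpain and m-calpain, are dimers of a large catalytic subunit and a shared small subunit. CAPN1 encodes the large subunit of mu-calpain and CAPN2 that of m-calpain, while CAPNS1 encodes the small subunit. In muscle after slaughter, mu-calpain is known for cutting structural proteins of the sarcomere, which softens the meat, and calpastatin for holding it in check. CAPN3 encodes the calpain of skeletal muscle, which binds the giant protein titin and whose loss causes a limb-girdle muscular dystrophy in people. CAPN5 and CAPN7 encode calpains without the calcium-binding domain of the classical ones, and CAPN6 a calpain-like protein known to lack the active-site cysteine.

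None of the 7 genes passed the test between breeds (limma, adjusted p under 0.05), where 3.05% of all 11791 genes tested passed, 1.76% higher and 1.29% lower in Wannanhua. At an unadjusted p under 0.05 stood 3 of the 7. CAPN1 and CAPN6 were lower in every Wannanhua library than in any Yorkshire library, and CAPN7 was higher, while 29.9% of all genes had breeds that did not overlap. The mean level of CAPN1 was 27.0 ± 11.3 FPKM in the local breed and 43.8 ± 5.42 in the lean one, and that of CAPN6 2.75 ± 0.850 and 4.97 ± 0.891 FPKM (SD, n = 3). In CAPN7 the Wannanhua mean was 10.04 ± 0.800 FPKM against a Yorkshire mean of 7.37 ± 0.870 (SD, n = 3). FPKM counts fragments per kilobase of transcript and scales them by the mapped fragments of the library, so levels can be set side by side between genes.

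Reads counted to the genes of the deposited table, as recovered from scaled counts, came to between 16385606 and 21056708 per library. Each library had between 10726 and 11979 genes at 1 FPKM or more. Skeletal muscle markers were abundant, with a summed level of 9689 to 14920 FPKM in Wannanhua and 5888 to 7382 in Yorkshire over the 4 of 8 listed genes that had a row (DES, NEB, TCAP and MYOT). No library was a copy of another of its breed. For every pair of one breed, the recovered reads, rounded, differed beyond sampling (chi-square over its degrees of freedom at least 79.8). Pairs across breeds were not compared in this way. Wannanhua 3 stood apart from Wannanhua 1 and 2 in its fibre genes. Its fast-fibre list averaged 11.18 on the log2(FPKM + 1) scale, against 9.49 and 9.52 in Wannanhua 1 and 2 and 11.53 to 11.86 in Yorkshire. PVALB weighs heavily in these averages, at 0.106, 8.20 and 44.9 FPKM in Wannanhua 1, 2 and 3. The other genes averaged, CASQ1, TNNC2, ATP2A1 and MYL1, were lower in Wannanhua 2 than in Wannanhua 1, and highest of the breed in Wannanhua 3. Yorkshire 1 stood apart as well, with the fewest genes at 1 FPKM. Its fat cell list (2 genes tested) averaged 0.70 on the log2(FPKM + 1) scale against 2.59 to 2.99 in the other libraries. Bulk tissue cannot tell fewer cells or fibres of a type from less RNA in each.

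CAPN3 was the most abundant of the 7 in each of the 6 libraries. It stood at 214, 268 and 425 FPKM in Wannanhua 1, 2 and 3 and at 268, 366 and 373 FPKM in Yorkshire 1, 2 and 3. The breeds overlapped, since the lowest and the highest library were both Wannanhua. Its mean level over the 6 libraries was above that of 97.6% of the 11791 genes tested. CAPN3 made up between 73.6% and 82.5% of the summed FPKM of the 6 large calpains of the set in each library. Large calpains outside the set, such as CAPN15, were not counted in. Differences are given as Wannanhua minus Yorkshire. That of CAPN3, on the log2(FPKM + 1) scale, was -0.20 ± 0.29 (SE), with a 95% interval from -0.87 to 0.48 (limma adjusted p = 0.729). Without Wannanhua 1 it was 0.02, without Wannanhua 3 it was -0.47, and without Yorkshire 1, whose CAPN3 was the lowest of its breed, it was -0.35.

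**Figure D1:**
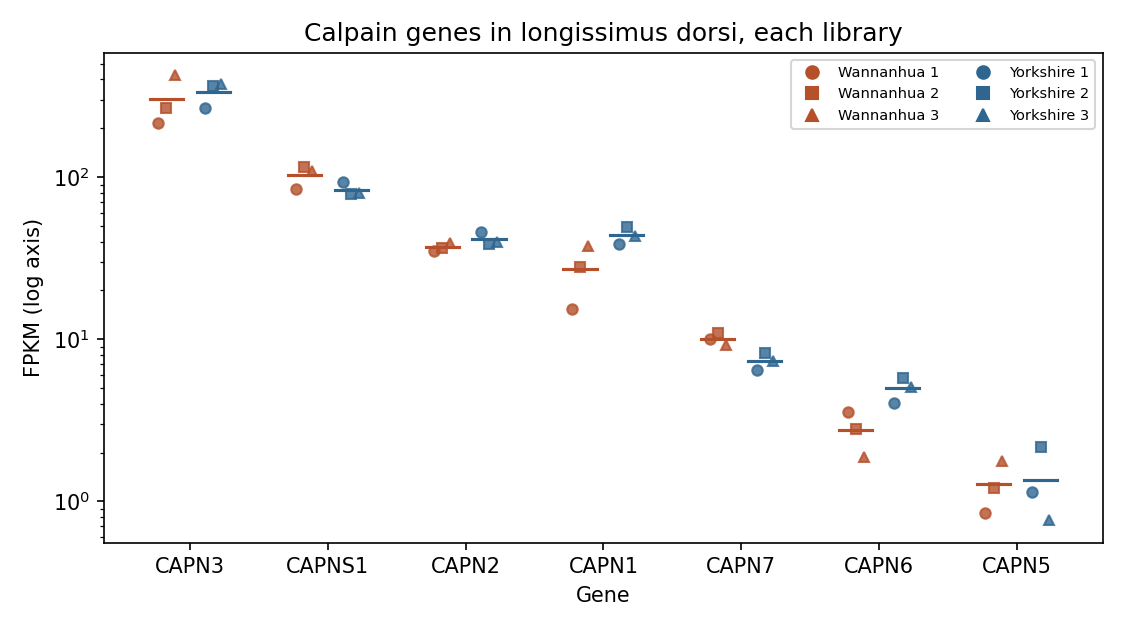
Level of each of the 7 calpain genes in each library, in FPKM on a log axis, with Wannanhua in red and Yorkshire in blue, the marker shape giving the replicate number and the bar the mean of 3 libraries. CAPN3 lies above all other members, from 214 to 425 FPKM, and CAPN5 has the lowest mean level.

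CAPNS1, the small subunit, came next. It stood at 84.98, 116 and 108 FPKM in Wannanhua 1, 2 and 3 and at 92.8, 78.2 and 80.3 in Yorkshire 1, 2 and 3. Wannanhua 1 fell among the Yorkshire libraries, while Wannanhua 2 and 3 lay above all of them. The difference in CAPNS1 on the log2(FPKM + 1) scale was 0.29 ± 0.19 (SE), with a 95% interval from -0.15 to 0.73 (limma adjusted p = 0.411).

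The catalytic subunits of the classical calpains came after it, and their ranges overlapped in both breeds. CAPN2 was higher than CAPN1 in 3 of 3 Wannanhua libraries, and CAPN1 was higher than CAPN2 in 2 of 3 Yorkshire libraries. All other neighbours in the order of levels, CAPN3 over CAPNS1, CAPN7 over CAPN6 and CAPN6 over CAPN5 among them, had separate ranges within each breed.

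CAPN2 was steady. It stood at 34.8, 36.6 and 39.4 FPKM in Wannanhua 1, 2 and 3 and at 46.1, 38.6 and 39.9 FPKM in Yorkshire 1, 2 and 3. The highest library was 1.32 times the lowest, the smallest such ratio among the 7 genes. Its SD on the log2(FPKM + 1) scale was 0.088 in Wannanhua and 0.13 in Yorkshire, against medians of 0.23 and 0.25 over all tested genes. Only Yorkshire 1 lay well above the others, and the breeds overlapped. The difference in CAPN2 was -0.16 ± 0.16 (SE) on the log2(FPKM + 1) scale, with a 95% interval from -0.54 to 0.22 (limma adjusted p = 0.594). Without Yorkshire 1 it was -0.09, and over the other libraries left out it stayed between -0.21 and -0.12.

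CAPN1 had the largest ratio of highest to lowest library among the 7. It stood at 15.3, 28.0 and 37.8 FPKM in Wannanhua 1, 2 and 3 and at 38.4, 49.3 and 43.6 FPKM in Yorkshire 1, 2 and 3. The breeds did not overlap, but Wannanhua 3 lay just under Yorkshire 1. The highest library was 3.21 times the lowest, against 3.085 times for CAPN6. Within Wannanhua its SD on the log2(FPKM + 1) scale was 0.63, larger than that of 92.9% of tested genes, and within Yorkshire it was 0.17, larger than that of 31.5%. The difference in CAPN1 was -0.76 ± 0.31 (SE) on the log2(FPKM + 1) scale, with a 95% interval from -1.49 to -0.02 and an unadjusted p of 0.0450, which did not pass after adjustment (limma adjusted p = 0.214). Without Wannanhua 1 it was -0.41 (limma adjusted p = 0.410), and over the 15 alternatives the adjusted p ran from 0.0956 to 0.410.

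CAPN7, which encodes a calpain with microtubule-interacting domains and without the calcium-binding domain of the classical ones, had the opposite sign. It stood at 10.02, 10.9 and 9.26 FPKM in Wannanhua 1, 2 and 3 and at 6.498, 8.24 and 7.37 FPKM in Yorkshire 1, 2 and 3. Each Wannanhua library was above each Yorkshire library. The difference in CAPN7 was 0.40 ± 0.17 (SE) on the log2(FPKM + 1) scale, with a 95% interval from 0.01 to 0.79 (unadjusted p = 0.0450, limma adjusted p = 0.214). After quantile normalization it was 0.26, with an unadjusted p of 0.129 (limma adjusted p = 0.365).

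CAPN6 was a low-level gene, counted from 113 to 384 reads per library. It stood at 3.58, 2.78 and 1.88 FPKM in Wannanhua 1, 2 and 3 and at 4.02, 5.79 and 5.10 FPKM in Yorkshire 1, 2 and 3. The breeds did not overlap, and here Wannanhua 3 was farthest from Yorkshire, where for CAPN1 it was nearest. The difference in CAPN6 was -0.69 ± 0.23 (SE) on the log2(FPKM + 1) scale, with a 95% interval from -1.22 to -0.16. Its unadjusted p of 0.0178 was the smallest of the 7, and it did not pass after adjustment (limma adjusted p = 0.138). Since FPKM of a few units is damped by the added 1, the difference was -0.86 with a pseudocount of 0.1 and -0.89 on log2(scaled count + 1). It shrank to -0.51 without Wannanhua 3 and to -0.59 without Yorkshire 2. Over the 14 alternatives the limma adjusted p of CAPN6 ran from 0.0790 to 0.303. COL1A2, a fibroblast marker that encodes a chain of type I collagen, was also lower in each Wannanhua library, at 29.5, 20.3 and 20.3 FPKM in Wannanhua 1, 2 and 3, against 32.3, 119 and 67.4 FPKM in Yorkshire 1, 2 and 3 (limma adjusted p = 0.119). It put the 6 libraries in the same order as CAPN6, though Wannanhua 2 and 3 were nearly equal in it. COL3A1, of type III collagen, averaged 89.5 ± 12.1 and 211 ± 116 FPKM with overlap (SD, n = 3, limma adjusted p = 0.214). The other 3 tested fibroblast markers, DCN, LUM and PDGFRA, overlapped too. On the log2(FPKM + 1) scale their differences were -0.34 for DCN, -0.11 for LUM and, with the opposite sign, 0.23 for PDGFRA. The part of fibroblasts in the CAPN6 level was not tested, and these markers were named after their values were seen.

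CAPN5, the least abundant, was counted from 57 to 149 reads per library. It stood at 0.850, 1.21 and 1.78 FPKM in Wannanhua 1, 2 and 3 and at 1.15, 2.17 and 0.764 FPKM in Yorkshire 1, 2 and 3. The lowest and the highest library were both Yorkshire, and the breeds overlapped fully. The difference in CAPN5 was -0.03 ± 0.27 (SE) on the log2(FPKM + 1) scale, with a 95% interval from -0.65 to 0.60 (limma adjusted p = 0.964). Its sign turned without Wannanhua 1 (0.11) and without Yorkshire 2 (0.21).

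**Figure D2:**
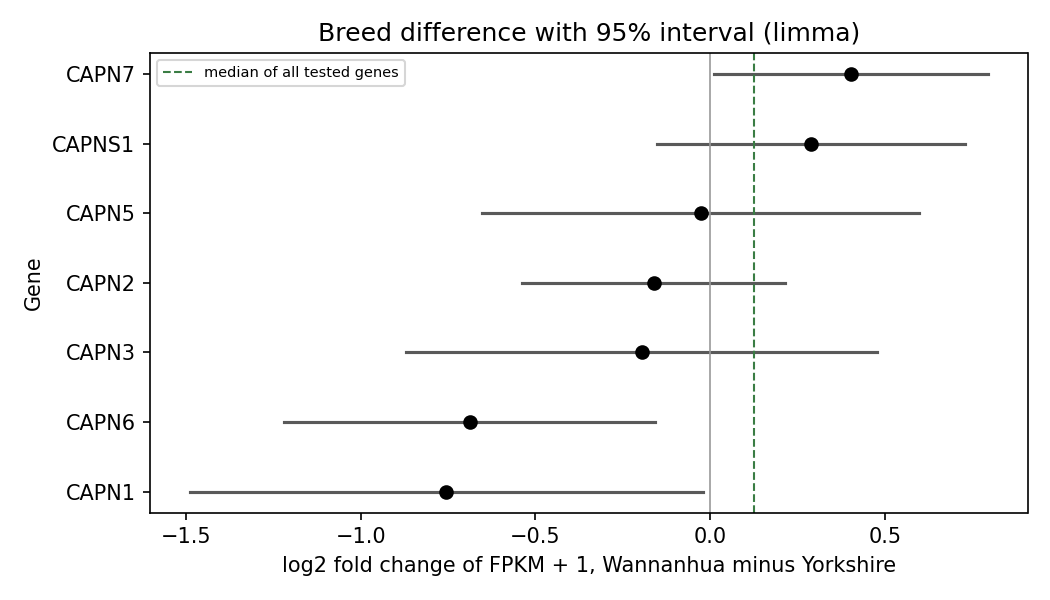
Difference between breeds for each of the 7 genes, as the log2 fold change of FPKM + 1, Wannanhua minus Yorkshire, with the 95% interval of the limma fit (n = 3 libraries a breed). The intervals of CAPN1, CAPN6 and CAPN7 leave out 0 before adjustment, and the dashed line is the median of all tested genes at 0.12.

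The 3 genes at an unadjusted limma p under 0.05 were 42.9% of the 7, against 22.1% of all genes. That count was 1 without Wannanhua 1, 2 or 3 or Yorkshire 1, each left out alone, and 0 without Yorkshire 2 or 3. It was 2 after quantile normalization, with no filter, with the replicate block and on scaled counts. The same 3 were those whose breeds did not overlap, 1 higher and 2 lower in Wannanhua, against 20.3% of all genes higher and 9.63% lower. With 7 genes these shares are a description of the set and do not set it apart. The median difference of the 7 was -0.16, and that of all tested genes 0.12. Relative to that overall median, the differences were -0.88 for CAPN1, -0.81 for CAPN6 and 0.28 for CAPN7. All 7 genes passed the filter of at least 1 FPKM in 3 libraries, CAPN5 with values close to it.

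The balance between subunits was then read as a ratio of FPKM within each library, which library scaling cannot change. These ratios were picked after the values were seen and carry no test. CAPNS1 over the sum of CAPN1 and CAPN2 was 1.69, 1.79 and 1.404 in Wannanhua 1, 2 and 3, against 1.10, 0.890 and 0.962 in Yorkshire 1, 2 and 3. In FPKM the small subunit's transcript thus exceeded the summed large subunits in every Wannanhua library, by a wider margin than in Yorkshire 1. It lay below them in Yorkshire 2 and 3. Whether this holds in numbers of transcripts rests on the transcript lengths used.

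CAPN3 over CAPN1 was 14.0, 9.56 and 11.2 in Wannanhua 1, 2 and 3, against 6.97, 7.43 and 8.57 in Yorkshire 1, 2 and 3, and the breeds did not overlap in this ratio either. CAPN1 over CAPN2 was 0.440, 0.765 and 0.958 in Wannanhua 1, 2 and 3, against 0.834, 1.28 and 1.09 in Yorkshire 1, 2 and 3, where Wannanhua 3 lay above Yorkshire 1. CAPN3 over CAPN2 overlapped between breeds, with means of 8.08 ± 2.40 for Wannanhua and 8.22 ± 2.09 for Yorkshire (SD, n = 3). Both ratios that kept the breeds apart held CAPN1, the gene with the largest ratio of highest to lowest library. The summed FPKM of CAPN1 and CAPN2 did not overlap between breeds either. It was 50.2, 64.6 and 77.2 in Wannanhua 1, 2 and 3, against 84.5, 87.8 and 83.4 in Yorkshire 1, 2 and 3. These ratios are thus not separate from the CAPN1 values given above.

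**Figure D3:**
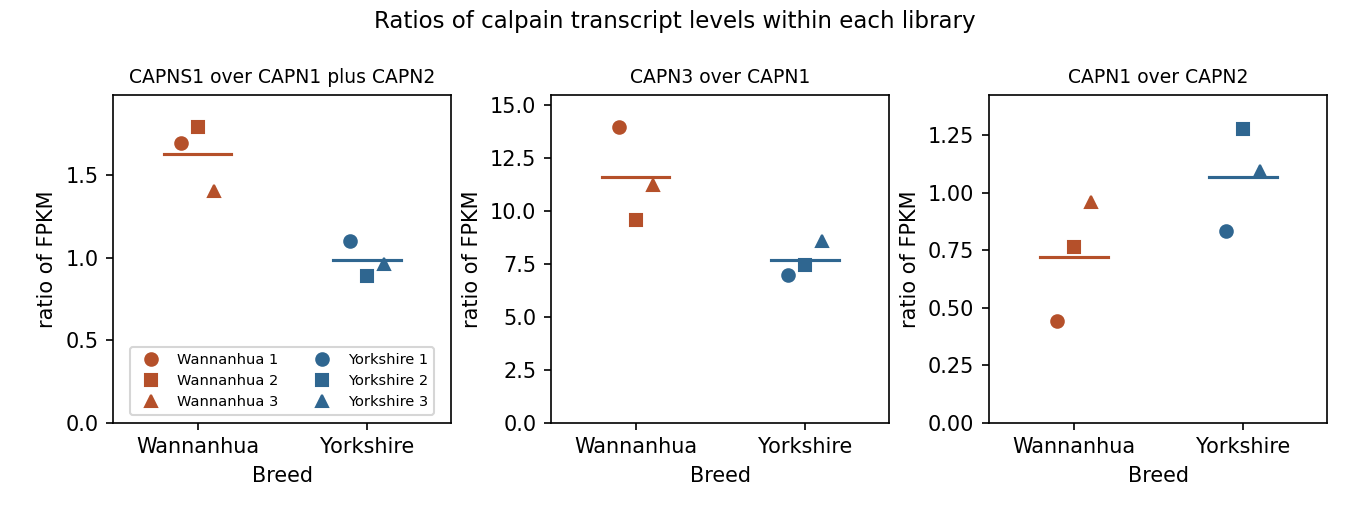
Ratios of FPKM between calpain genes within each library, by breed, with the marker shape giving the replicate number and the bar the mean of 3 libraries. CAPNS1 over CAPN1 plus CAPN2 runs from 1.404 to 1.79 in Wannanhua and from 0.890 to 1.10 in Yorkshire, and CAPN1 over CAPN2 overlaps.

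CAPN1 and CAPN3 were lowest in Wannanhua 1 and 2, the libraries lowest in fast-fibre genes, though CAPN3 was almost as low in Yorkshire 1. Within that pair the order was not shared. CAPN1 and CAPN3 were lowest in Wannanhua 1, while CASQ1, TNNC2, ATP2A1 and MYL1 were lowest in Wannanhua 2. The list averages of the pair, 9.49 and 9.52, came close because PVALB stood at 0.106 FPKM in Wannanhua 1 and 8.20 in Wannanhua 2. The fast-fibre list (5 of 12 genes with a row: CASQ1, TNNC2, ATP2A1, MYL1 and PVALB) had a median difference of -1.32, with all 5 negative and 1 lower past the threshold. That gene was CASQ1, the calcium store protein calsequestrin, at 1525, 1257 and 1876 FPKM in Wannanhua 1, 2 and 3, against 3147, 3780 and 4010 FPKM in Yorkshire 1, 2 and 3 (limma adjusted p = 0.0435, lost in 8 of 15 alternatives, among them each library left out except Wannanhua 3). Its lowest libraries, Wannanhua 1 and 2, were the lowest of the 6 for CAPN1 and for CAPN3. In Wannanhua 3, where the list averaged 11.18, CAPN1 was close to Yorkshire and CAPN3 was the highest of the 6 libraries. CAPN6 differed from both, being lowest in Wannanhua 3. Summed over the 5 genes, the list ran from 11070 to 34770 FPKM in Wannanhua and from 51310 to 51590 in Yorkshire. None was listed at 0, but PVALB was down to 1 read in Wannanhua 1. The slow-fibre list (4 of 9 with a row: MYL3, TNNC1, TNNI1 and TNNT1) averaged 13.15, 13.15 and 11.20 in Wannanhua 1, 2 and 3, against 11.92, 10.26 and 11.17 in Yorkshire 1, 2 and 3. The part of fibre makeup in the calpain levels was not tested.

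**Figure D4:**
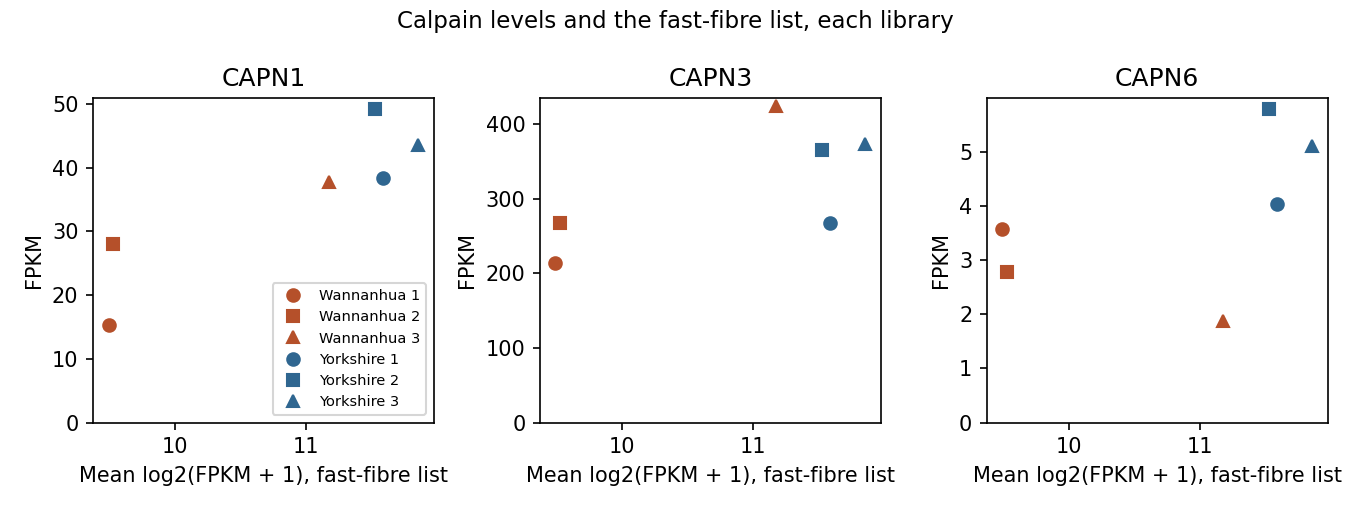
FPKM of CAPN1, CAPN3 and CAPN6 in each library against the mean log2(FPKM + 1) of the 5 fast-fibre genes with a row. Wannanhua 1 and 2, at 9.49 and 9.52 on the fast-fibre axis, hold the lowest CAPN1 and CAPN3, while CAPN6 is lowest in Wannanhua 3. The position of Wannanhua 1 on this axis is lowered by PVALB, at 0.106 FPKM there.

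CAPN1, CAPN2 and CAPNS1 are made in most cell types, so markers of other cells stand beside them. Fibroblast markers (5 of 6 with a row) summed to 281 to 366 FPKM in Wannanhua and 316 to 766 in Yorkshire, and endothelial markers (3 of 6) to 35.1 to 52.1 and 39.1 to 47.4. Macrophage markers (4 of 6) summed to 7.43 to 8.24 FPKM in Wannanhua and 5.09 to 9.46 in Yorkshire, and fat cell markers (2 of 6, PLIN1 and CIDEC) to 10.15 to 13.9 and 1.29 to 11.99. Smooth muscle markers (5 of 5) summed to 79.4 to 233 and 94.2 to 137 FPKM, and Schwann cell markers (2 of 5) to 7.73 to 11.6 and 0.853 to 5.53. None of these marker genes was listed at 0 in a library, and none of those tested passed the threshold (limma, 3 at an unadjusted p under 0.05). Among these 6 sums, those of the Schwann cell list did not overlap between breeds. The part of these cells in the levels was not tested.

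By likeness of profile, CAPN1 stood nearest to GAA, the lysosomal glucosidase that breaks down glycogen, then to PC, pyruvate carboxylase. Likeness is the root mean square difference between centred log2(FPKM + 1) profiles over the 6 libraries, taken over 4356 other genes with a symbol and a mean of at least 5 FPKM, and was 0.132 and 0.158 for these genes. GAA stood at 6.39, 10.5 and 12.6 FPKM in Wannanhua 1, 2 and 3 and at 12.6, 17.6 and 16.6 FPKM in Yorkshire 1, 2 and 3. CAPN2 stood nearest to UBE2A, a ubiquitin-conjugating enzyme, BTF3 and RACK1, a protein of the small ribosomal subunit (0.0352, 0.0389 and 0.0445). CAPN3 stood nearest to HS6ST1, a heparan sulfate sulfotransferase, DHX32 and BLTP2 (0.0812, 0.0835 and 0.0912). The points share breed and library, and these names are a description.

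Few of the other calpain genes could be read. Of 10 listed names, 1 of them (SOLH) an older name of CAPN15, CAPN15 and CAPN11 had a row. The other genes listed had no row through the symbol table, so their levels were not seen here. CAPN15, a calpain with zinc fingers, stood at 3.57, 4.05 and 3.74 FPKM in Wannanhua 1, 2 and 3 and at 2.79, 2.45 and 3.28 FPKM in Yorkshire 1, 2 and 3, without overlap (difference 0.32 ± 0.17 SE on the log2(FPKM + 1) scale, limma adjusted p = 0.306). CAPN11 had 1 read in Wannanhua 2 and in Yorkshire 1 and was listed at 0 elsewhere.

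Among proteins that bind calpain 3 or anchor it, 3 of 6 listed genes had a row. ANKRD2, a stretch-responsive ankyrin repeat protein of the titin filament's N2A region, was the 1 past the threshold, higher in Wannanhua. It stood at 579, 458 and 299 FPKM in Wannanhua 1, 2 and 3 and at 77.5, 43.3 and 71.1 FPKM in Yorkshire 1, 2 and 3 (difference 2.77 ± 0.32 SE, limma adjusted p = 0.0115). It passed in 12 of 15 alternatives and was lost without Wannanhua 1, Wannanhua 2 or Yorkshire 3, with an adjusted p of up to 0.0815. Its relative ANKRD1 stood at 96.4, 53.5 and 291 FPKM in Wannanhua 1, 2 and 3 and at 57.1, 509 and 107 FPKM in Yorkshire 1, 2 and 3 (limma adjusted p = 0.846). DYSF, the membrane repair protein dysferlin, averaged 26.3 ± 4.17 and 28.6 ± 7.14 FPKM (SD, n = 3; limma adjusted p = 0.838).

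Of the sarcomere and membrane skeleton proteins that calpains are known to cut, 8 of 11 listed genes were tested and 0 passed (limma, 2 at an unadjusted p under 0.05). Their median difference was 0.20, with 5 positive and 3 negative. DES, the intermediate filament desmin, came closest, at 4660, 5716 and 4376 FPKM in Wannanhua 1, 2 and 3, against 2934, 2389 and 2181 FPKM in Yorkshire 1, 2 and 3 (limma adjusted p = 0.0706). TLN2, a talin abundant in muscle, had the opposite sign, at 19.7 ± 5.00 and 32.7 ± 5.99 FPKM (SD, n = 3; limma adjusted p = 0.133). DES and TLN2 were named after their values were seen.

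The cathepsin, caspase and cystatin lists together gave 1 gene past the threshold. Of 12 listed cathepsins, the proteases of the lysosome, 8 were tested and 0 passed (limma, 1 at an unadjusted p under 0.05), with a median of -0.13, 4 positive and 4 negative. Of 15 listed caspases and caspase regulators, 5 were tested and 0 passed (limma, 1 at an unadjusted p under 0.05), with a median of -0.23. Of 5 listed cystatins, inhibitors of cysteine proteases, 2 were tested and CSTB passed, lower in Wannanhua. CSTB, the cytosolic cystatin B, which blocks cathepsins, stood at 16.6, 26.3 and 18.8 FPKM in Wannanhua 1, 2 and 3 and at 47.6, 40.1 and 39.5 FPKM in Yorkshire 1, 2 and 3. The breeds did not overlap (difference -1.03 ± 0.21 SE on the log2(FPKM + 1) scale, limma adjusted p = 0.0495). The call lay at the threshold and was lost in 13 of 15 alternatives, among them each library left out, with an adjusted p of up to 0.161 and a difference between -1.21 and -0.90.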

How the data were processed

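RNA was sequenced as poly-A selected, paired-end libraries made with a kit that does not mark strand, per the labels' protocols. Per the submitters' processing notes the tools included TopHat2 2.0.6 and CASAVA 1.7, and the build was Sscrofa10.2. The read counter and the annotation are, in the sources used here, not given. The authors deposited FPKM values and values headed as counts, which are not whole numbers and were treated as a signal, deposited as reads times a library factor. Between 99.71% and 99.82% of the values above 0 per library were whole multiples of 1 step (within 0.01 of a read or a relative 1e-05), which gave the reads quoted as depth. A few values lie below that step, so whole reads were not taken as recovered for testing. The planned count tests were not run, and limma on log2(scaled count + 1) was added after seeing the data.

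A table pairing Ensembl identifiers with symbols matched 10384 of 17627. The test was limma 3.58.1 in R 4.3.3 on log2(FPKM + 1), with breed as its only term, trend and robust moderation, and Benjamini-Hochberg adjustment over the 11791 genes with at least 1 FPKM in 3 or more libraries. Left out were 7 abundant genes, at a scaled count of 10000 or more somewhere and listed at 0 in another library. The fit was tested on simulated data. Members, lists, tests and the naming rule were chosen with earlier results of these data known. The rule named every member, each list gene past the threshold, all genes with a row among other calpains and calpain 3 partners, and the 3 genes nearest in profile to CAPN1, CAPN2 and CAPN3, of which 1 is not reported here. Coordinates and sequences are not used here.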

Additional observations from a re-analysis of the deposited data

How the results depend on the processing

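Over the 14 or 15 alternatives run for each, 0 of the 7 calpain genes passed the threshold in any, and CAPN1, CAPN2, CAPN6, CAPN7 and CAPNS1 kept their sign. With each library left out in turn, the log2 difference of CAPN3 ran from -0.47 to 0.02 and that of CAPN5 from -0.22 to 0.21. Signs turned for CAPN3 without Wannanhua 1 (0.0216) and for CAPN5 without Wannanhua 1 (0.11) and Yorkshire 2 (0.21), where fewer samples were fitted. The count of 360 genes called was 69 with no filter and 205 with the replicate number as a block, and ran from 11 to 504 with each library left out (36 without Wannanhua 1, 19 without Wannanhua 2, 149, 46 and 11 without Yorkshire 1, 2 and 3). Higher genes made up 57.8% of the calls, and 40.8% after quantile normalization, 44.9% with no filter and 60.5% on scaled counts. With each library left out it ran from 10.5% (without Wannanhua 2) to 67.4% (without Yorkshire 2), and was 38.9% without Wannanhua 1. In the pathway lists, 2 genes were called, 3 after quantile normalization, and 1 with no filter, a pseudocount of 0.1 or 0.5, the abundant genes listed at 0 kept, the replicate block or scaled counts, and 0 to 1 with a library left out. In the fibre and cell lists, 1 gene was called, 2 without trend and robust settings, 0 with no filter or the replicate block, and 0 to 5 with a library left out. Same-numbered libraries of the breeds deviated together weakly at most (correlations of deviations 0.101, -0.012 and 0.107 for numbers 1, 2 and 3). Those of numbers 1 and 3 were the highest of all pairs across breeds. Neither library of number 2 correlated best with its own number, so the block pairs by number only. With the replicate block the differences of the members were the same, and their adjusted p changed no call. The planned count tests on whole reads (edgeR and DESeq2) were not run. Depth limited CAPN5 most, at 57 reads in its lowest library.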
